A study of Mus musculus with 16 samples.

Results

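The 39 genes described here carry pyruvate into the mitochondrion and oxidise it: the pyruvate carrier and carboxylase, the pyruvate dehydrogenase complex with its kinases and phosphatases, the enzymes of the citrate cycle, the malic enzymes, and the shuttles and carriers that link the cycle to the cytosol. They were chosen by name, and each was read from the brightest probe set annotated to that 1 gene symbol. Of the 39 genes, 38 had such a probe set (Mpc2 did not), out of 19938 genes on the array with one. A further gene, Pdk3, fell below the filter on dim probe sets, so 37 were tested. Expression was measured in gastrocnemius muscle of 16 male mice on Affymetrix Mouse Gene 1.0 arrays, with 1 array per mouse and 4 arrays in each of 4 groups. All mice had the C57Bl6J background and were fed butter fat as 40% of their calories over 8 weeks or longer. Their ages were not given. The Ppp3r1 KO group lacks the regulatory subunit of calcineurin in skeletal muscle through a Cre recombinase driven by Mlc1f, a promoter of fast muscle fibres, so other cells of the muscle keep the gene. Its controls were WT littermates, and whether they carry the Cre is not stated. The Ppp3cb KO group lacks a catalytic subunit of calcineurin in all tissues, and its controls were WT littermates too.

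Pyruvate, the end product of glycolysis, enters mitochondria through a carrier made of Mpc1 and Mpc2 and is converted to acetyl-CoA by the pyruvate dehydrogenase complex. Kinases (Pdk1 to Pdk4) switch the complex off and phosphatases (Pdp1, Pdp2) switch it on. In muscle, Pdk4 is known to rise with fasting and fat feeding. The citrate cycle then oxidises acetyl-CoA and passes electrons to the respiratory chain, and the malate-aspartate shuttle brings cytosolic reducing equivalents into the mitochondrion. Calcineurin is a calcium-dependent phosphatase known for its part in the oxidative fibre programme of muscle.

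All values are log2 RMA values of a probe set (robust multi-array average, a background-corrected and quantile-normalised summary), and a probe set's level is not set against that of another gene. The targeted genes were read first. Ppp3cb was between 10.22 and 11.74 on the 4 arrays labelled Ppp3cb KO and between 10.23 and 11.80 on the 4 labelled WT. The arrays of KO animals 6 and 9 were at the intact level and those of WT animals 23 and 24 were low, so 4 arrays contradicted their label. Ppp3cb was between 11.47 and 11.70 in the whole Ppp3r1 line. Labels are kept below, the comparisons that use the Ppp3cb line are also given without those 4 arrays, and its arrays are also described by their Ppp3cb value. In the Ppp3r1 line, the Ppp3r1 gene read 9.49 ± 0.14 (SD, n = 4) in WT muscle and 9.17 ± 0.14 (SD, n = 4) in KO muscle, a log2 difference of -0.32 (SE 0.13) that was not called (limma adjusted p = 0.371). Array medians were 6.68 to 6.77 in the Ppp3cb line and 6.81 to 6.94 in the Ppp3r1 line. Markers of skeletal muscle, 8 of 8 measured, had summed log2 levels of 16.80 to 16.94 over all arrays. In whole muscle, fewer cells of a type and less RNA per cell cannot be told apart.

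Muscle-specific loss of Ppp3r1 was compared with WT littermates to ask how genes of pyruvate oxidation differ in muscle with this deletion. Most members read lower in KO muscle, by small amounts: 31 of 37 were lower and 6 higher, with a median log2 difference of -0.16, against 0.017 over all 15252 tested probe sets (transcript clusters, below called clusters), of which 45.8% were lower. The 5 subunits of the pyruvate dehydrogenase complex were all lower, by a median of 0.31 in size. The 7 members of the first span of the citrate cycle were lower too, by 0.06 to 0.36 in size. Several members stayed within 0.07 of the WT mean. Among them were the mitochondrial aspartate aminotransferase Got2, the oxoglutarate dehydrogenase subunit Ogdh and the citrate synthase Cs, itself a first-span member. No member passed the test (limma, 0 of 37 at an adjusted p under 0.05, smallest limma adjusted p = 0.363), where 0.00656% of all clusters did, the 1 called being the myosin gene Myh2. At an unadjusted p under 0.05, 12 of the 37 (32.4%) were lower and 0 higher, against 5.35% of all clusters lower. These shares over all clusters are not matched for brightness, and bands of brightness are given below.

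The size of the difference depended on single animals and on the processing. Taking each array's median over the members as a difference from the WT mean, KO animal 331 stood at -0.35 and KO animal 414 at -0.25, while KO animals 335 and 416 stood at -0.05 and 0.08. Of the 37 members, 33 lay below the WT mean in animal 331 and 33 in animal 414, 27 in animal 335 and 15 in animal 416. Among the WT arrays, animal 334 was the highest at 0.13, with 4 of 37 members below the WT mean, and the other three were between -0.08 and -0.01. The medians of all clusters on the same 8 arrays were between -0.04 and 0.07. So 2 KO arrays were low, 2 overlapped the WT arrays, and 1 WT array was high. The share of all clusters lower at an unadjusted p under 0.05 moved with the same omissions. Without WT animal 334 the count was 5 members (2.4% of all clusters), without KO animal 331 it was 5 (3.99%), and without KO animal 414 it was 6 (3.02%). Without KO animal 416 it was 17 (10% of all clusters), with the smallest limma adjusted p = 0.0928. With array weights the count was 3 (4.93%), and with both groups of the line fitted alone it was 6 (3.74%). With quantile normalisation repeated on the deposited values it was 7 (4.5%). The median log2 difference of the members was -0.10 without KO animal 331, -0.11 without WT animal 334 and -0.26 without KO animal 416.

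**Figure D1:**
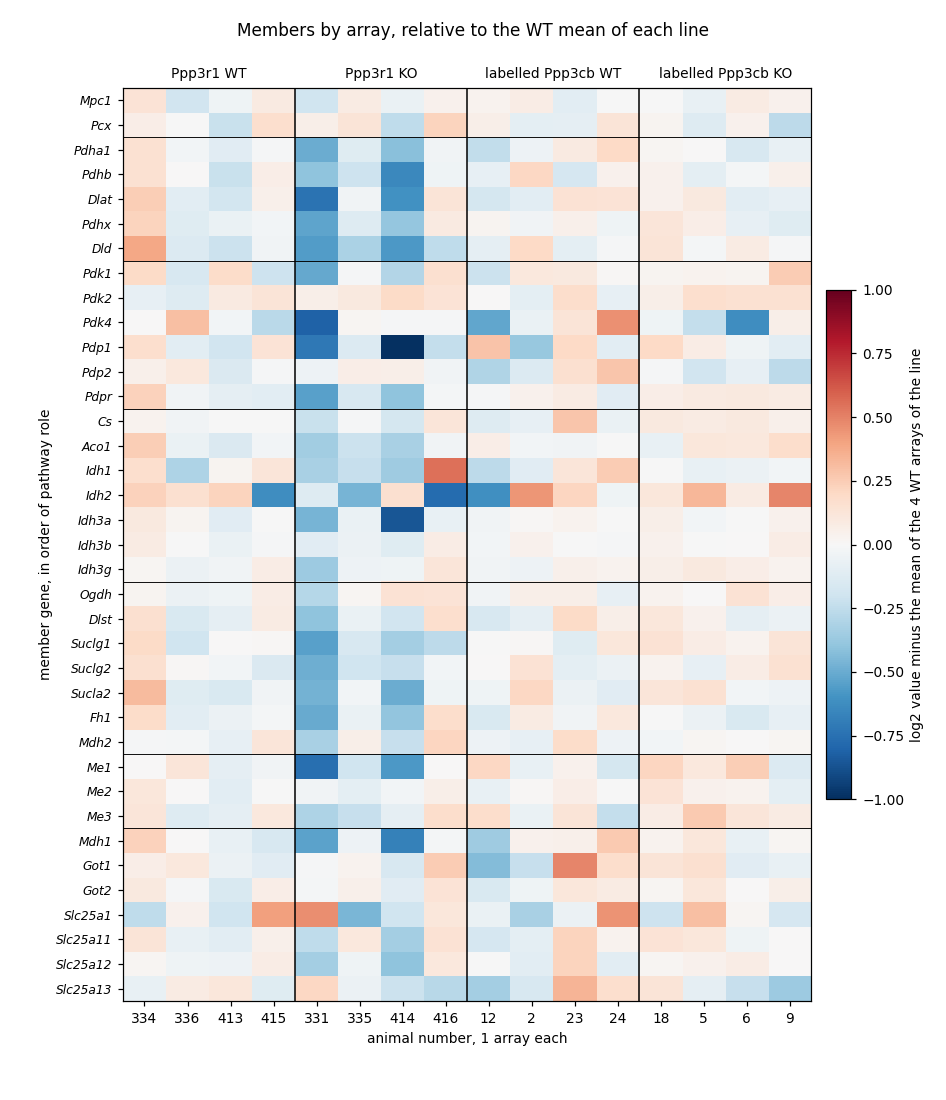
Log2 value of each of the 37 tested members (rows, in order of pathway role) on each of the 16 arrays (columns, by animal number) minus the mean of the 4 WT arrays of the same line; red is higher and blue lower, and colours end at 1 in either direction. The blue of the Ppp3r1 KO group lies mainly in the columns of animals 331 and 414, where 33 of 37 members are below the WT mean.

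Markers of other cell types were read on the same arrays, and their part in these differences was not tested. Tendon markers, 4 of 4 measured, had summed log2 levels of 9.62, 10.60, 9.53 and 10.47 in KO animals 331, 335, 414 and 416, against 10.42 to 11.21 in WT, and 3 of 4 were lower in KO with 0 called. Endothelial markers, 5 of 5 measured, had summed levels of 10.76, 11.32, 11.17 and 11.72 in the same KO animals, against 11.17 to 11.58 in WT, and 3 of 5 were lower with a median of -0.22 and 0 called. In both lists KO animals 331 and 414, the arrays with the lowest members, had the lowest KO levels. The same held for general skeletal muscle markers, at 16.86 and 16.80 against 16.91 and 16.88 in KO animals 335 and 416. It held for Myh2, whose values follow, with 9.85 in animal 331 against 9.86 in animal 416. It did not hold for fibroblast markers, at 12.73 and 12.67 against 12.67 and 12.66. Nor did it hold for slow fibre markers, at 12.49 and 12.54 against 13.02 and 11.28, or for macrophage, white adipocyte and Schwann cell markers. Markers of slow fibres were higher in 6 of 7 with 0 called, and their summed level overlapped (11.28 to 13.02 in KO, 10.83 to 12.91 in WT). Myh2, the myosin of fast oxidative fibres, fell by 2.08 (SE 0.25, limma adjusted p = 0.00186) and read 9.85, 10.71, 9.46 and 9.86 in the KO animals and 11.30 to 12.40 in WT. White adipocyte markers ranged from 10.78 to 12.16 in KO and from 10.85 to 11.92 in WT, and macrophage markers from 9.60 to 9.79 and from 9.36 to 9.74. General skeletal muscle markers were lower in 7 of 8 with a median of -0.05, and fibroblast markers in 5 of 5 with a median of -0.23, with 0 called in either list. The brown adipocyte markers Ucp1 and Cidea were below the filter.

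The difference was also read within bands of probe set brightness. In the band of mean log2 values from 10 to 12, the 13 members had a median log2 difference of -0.30 and all 1502 clusters one of -0.05. From 12 to 16 the 12 members were at -0.06 and all 314 clusters at -0.03, and from 8 to 10 the 9 members were at -0.16 and all 5030 clusters at -0.03. The dimmest band, from 6 to 8, held 3 members at -0.03 and 8406 clusters at 0.05. There 34.9% of clusters were lower, against 58.8%, 60.7% and 56.4% in the bands from 8, 10 and 12. An unadjusted p under 0.05 in either direction was met by 10.6%, 11.2%, 17.6% and 21.3% of clusters, from the dimmest band up. Most members lie in the brighter bands.

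In the lists below, array values run in the order of animals 331, 335, 414 and 416 for Ppp3r1 KO, 334, 336, 413 and 415 for Ppp3r1 WT, 18, 5, 6 and 9 for labelled Ppp3cb KO, and 12, 2, 23 and 24 for labelled Ppp3cb WT. At the entry of pyruvate, neither tested member differed between Ppp3r1 KO and WT beyond the spread. Mpc1, a subunit of the pyruvate carrier, read 12.16, 12.44, 12.29 and 12.40 in KO and 12.50, 12.17, 12.32 and 12.45 in WT, a log2 difference of -0.04 (SE 0.08). Pcx, which carboxylates pyruvate to oxaloacetate, read 9.28, 9.35, 8.97 and 9.45 against 9.29, 9.22, 9.00 and 9.39, a difference of 0.04 (SE 0.12).

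The pyruvate dehydrogenase complex was the group with the lowest median, and its log2 differences lay between -0.43 and -0.24 in all 5 subunits. Dld, the lipoamide dehydrogenase that this complex shares with the oxoglutarate dehydrogenase complex, read 9.41, 9.65, 9.39 and 9.71 in KO and 10.35, 9.83, 9.75 and 9.93 in WT. No KO array reached the lowest WT array, a separation which held for 1 of 37 members in this direction and for 1.71% of all clusters. The members' share is near that of all clusters. The log2 difference was -0.43 (SE 0.12, a 1.34-fold lower level, limma adjusted p = 0.363), and it was -0.30 without WT animal 334. The two-sided exact permutation p = 0.0286 is the smallest that 4 against 4 arrays can give. It restates the separation and is not adjusted for the number of members. Pdhb, the beta subunit of the decarboxylating enzyme, read 7.80, 8.00, 7.56 and 8.16 in KO and 8.36, 8.21, 7.98 and 8.27 in WT, with overlap through KO animals 335 and 416 and WT animal 413, a difference of -0.32 (SE 0.12). Pdha1, its alpha subunit and the target of the kinases, read 10.85, 11.22, 10.93 and 11.31 against 11.50, 11.32, 11.23 and 11.33, a difference of -0.26 (SE 0.11), and 3 of 4 KO arrays lay below every WT array. Pdhx, which anchors Dld in the complex, differed by -0.24 (SE 0.12), and Dlat, the acetyltransferase core, by -0.31 (SE 0.16). Dlat spanned 9.82 to 10.69 in KO and 10.37 to 10.80 in WT. Leaving out any 1 array kept all 5 subunits lower, with a median between -0.41 (without KO animal 416) and -0.19 (without KO animal 331). With array weights, all 5 were lower with a median of -0.14, and with quantile normalisation repeated the median was -0.26.

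The promoter of Dld is shown because this gene was the member whose KO and WT arrays did not overlap. It is the 250 bases before the RefSeq start site, chr12:31351472-31351721 on the minus strand of GRCm38.p6, 5′ to 3′, with CpG dinucleotides in capitals.
Dld: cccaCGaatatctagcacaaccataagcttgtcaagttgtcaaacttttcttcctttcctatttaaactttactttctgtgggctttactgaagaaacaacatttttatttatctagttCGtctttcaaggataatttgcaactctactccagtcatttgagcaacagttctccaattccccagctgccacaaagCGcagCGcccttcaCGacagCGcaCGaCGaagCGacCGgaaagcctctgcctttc
The capitals lie mostly in the last stretch before the start site. Over the table's 300 bases (250 before and 50 after the start), the promoter of Dld was 47.0% G or C, the lowest of the 36 members found in the table, which ranged up to 76.7% (Pdpr) with a median of 62.0%. The median over 27018 genes was 52.7%. CpG dinucleotides numbered 12 to 47 in the members' promoters, with a median of 22, against a median of 7 over all genes.

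Of 3 short motifs searched on both strands of these 300 bases, few members held one. TNAAGGTCA, the binding core of estrogen-related receptors, was in 0 of 36 members' promoters and in 1.43% of 27025 genes. CCGGAAGT, a GABP site, was in 1 (Dlst) and in 4.31% of genes. GCGCATGCG, the core of the NRF1 site, was in 1 (Ogdh) and in 1.95% of genes. The Ogdh promoter is shown as the one member with the NRF1 match, chr11:6292308-6292557 on the plus strand of GRCm38.p6, with the match in capitals, ending 6 bases before the start.
Ogdh: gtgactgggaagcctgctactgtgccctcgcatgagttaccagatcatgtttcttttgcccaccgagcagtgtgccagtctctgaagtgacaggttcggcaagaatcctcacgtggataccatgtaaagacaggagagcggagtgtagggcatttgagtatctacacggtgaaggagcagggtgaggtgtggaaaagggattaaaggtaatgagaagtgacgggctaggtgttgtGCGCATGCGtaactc
No member's promoter held more than 1 of the motifs. Ogdh had a log2 difference of 0.00 (SE 0.08) between Ppp3r1 KO and WT.

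Among the regulators of the complex, the phosphatase Pdp1 and its subunit Pdpr had lower means in KO, and the kinases had differences of either sign. Pdp1, the main muscle phosphatase of the complex, read 11.22, 11.80, 10.67 and 11.70 in KO and 12.10, 11.83, 11.74 and 12.07 in WT. KO animals 331 and 414 were low and KO animal 335 lay inside the WT range, and the log2 difference of -0.59 (SE 0.19) had the greatest size among the 37 members, with -0.36 without KO animal 414. Pdpr, the regulatory subunit of that phosphatase, read 10.35, 10.73, 10.49 and 10.87 against 11.12, 10.86, 10.80 and 10.79, a difference of -0.28 (SE 0.11), with KO animal 416 inside the WT range. Pdp2, the second phosphatase, read 6.16, 6.28, 6.27 and 6.18 against 6.26, 6.32, 6.07 and 6.20, a difference of 0.01 (SE 0.11).

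Pdk4 read 11.75, 12.58, 12.55 and 12.55 in KO and 12.56, 12.86, 12.53 and 12.29 in WT. Its log2 difference of -0.20 (SE 0.21) came from KO animal 331 alone and was 0.00 without it. Pdk2, the kinase present in most tissues, read 12.59, 12.63, 12.72 and 12.67 in KO and 12.45, 12.40, 12.62 and 12.66 in WT, a difference of 0.12 (SE 0.07) and the highest among the members. Pdk1 differed by -0.16 (SE 0.14), and Pdk3, below the filter, read 5.55 to 5.98 in KO and 5.75 to 5.90 in WT. None of the 4 kinases separated the groups.

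In the first span of the citrate cycle, from citrate to 2-oxoglutarate, all 7 members were lower, by 0.06 to 0.36 in size. Idh3a, the catalytic subunit of the NAD-dependent isocitrate dehydrogenase, read 11.79, 12.19, 11.40 and 12.18 in KO and 12.35, 12.28, 12.14 and 12.25 in WT. KO animal 414 was the lowest, and the difference of -0.36 (SE 0.12) was -0.20 without it. The other subunits of the same enzyme differed by less, Idh3b by -0.06 (SE 0.06) and Idh3g by -0.08 (SE 0.08). Aco1, the cytosolic aconitase and iron regulatory protein, read 8.46, 8.59, 8.48 and 8.77 against 9.05, 8.74, 8.66 and 8.78, a difference of -0.24 (SE 0.10). Cs, the citrate synthase, had a WT mean of 12.58 ± 0.03 (SD, n = 4), and its KO mean was 12.51 ± 0.15 (SD, n = 4).

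Idh2 and Idh1, the NADP-dependent isocitrate dehydrogenases of mitochondrion and cytosol, had their extreme values on other arrays. Idh2 read 10.36, 10.02, 10.65 and 9.72 in KO and 10.72, 10.65, 10.71 and 9.87 in WT, a difference of -0.30 (SE 0.23). Its lowest values, KO animal 416 and WT animal 415, were also the arrays with the lowest summed slow fibre markers (11.28 and 10.83, against 12.33 to 13.02 on the other 6), and this was not tested. Idh1 read 7.53, 7.62, 7.50 and 8.40 in KO and 8.02, 7.54, 7.88 and 7.97 in WT, a difference of -0.09 (SE 0.17) that was -0.30 without KO animal 416.

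In the second span, from 2-oxoglutarate to oxaloacetate, 6 of 7 members were lower with a median of -0.20, and the succinyl-CoA ligase stood lowest. Suclg1, the alpha subunit common to both forms of that ligase, read 10.23, 10.61, 10.43 and 10.51 in KO and 10.96, 10.57, 10.77 and 10.78 in WT. A single KO array, animal 335, lay above the lowest WT array, and the difference was -0.32 (SE 0.10, limma adjusted p = 0.363). Its partners were Suclg2, the GTP-forming beta subunit, with 8.30, 8.59, 8.56 and 8.76 in KO and 8.95, 8.80, 8.76 and 8.64 in WT (difference -0.24, SE 0.10, and -0.13, SE 0.10, by the gene's second probe set), and Sucla2, the ATP-forming one, with a difference of -0.26 (SE 0.12). Fh1, the fumarase, differed by -0.20 (SE 0.12), Dlst, the succinyltransferase of the oxoglutarate dehydrogenase complex, by -0.13 (SE 0.11) and Mdh2, the mitochondrial malate dehydrogenase, by -0.07 (SE 0.09).

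The cytosolic malic enzyme Me1, which makes NADPH from malate, read 11.25, 11.80, 11.43 and 12.01 in KO and 12.01, 12.12, 11.91 and 11.97 in WT, a log2 difference of -0.38 (SE 0.14) with KO animal 416 inside the WT range. A second probe set of the gene gave -0.31 (SE 0.12). The mitochondrial forms Me2 and Me3 differed by -0.03 (SE 0.07) and -0.11 (SE 0.12), and Me3 read 8.92, 9.00, 9.14 and 9.41 against 9.35, 9.10, 9.14 and 9.34.

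Of the shuttle genes 5 of 7 were lower, with a median of -0.09. Mdh1, the cytosolic malate dehydrogenase, read 10.95, 11.44, 10.81 and 11.47 in KO and 11.72, 11.49, 11.41 and 11.33 in WT, a difference of -0.32 (SE 0.14) that was -0.20 without KO animal 414. Slc25a12, the aspartate-glutamate carrier of muscle, read 12.62, 12.92, 12.56 and 13.07 against 12.98, 12.92, 12.91 and 13.04, a difference of -0.17 (SE 0.10). The aminotransferases Got1 and Got2 differed by 0.03 (SE 0.15) and 0.01 (SE 0.07), and the carriers Slc25a1 (citrate), Slc25a11 (oxoglutarate) and Slc25a13 (the second aspartate-glutamate carrier) by -0.02, -0.09 and -0.09. So 1 of 7 shuttle members was lower at an unadjusted p under 0.05, and 3 of 5 in the pyruvate dehydrogenase complex. Of all clusters, 5.35% were lower at that threshold. Those shares were not tested against each other.

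**Figure D2:**
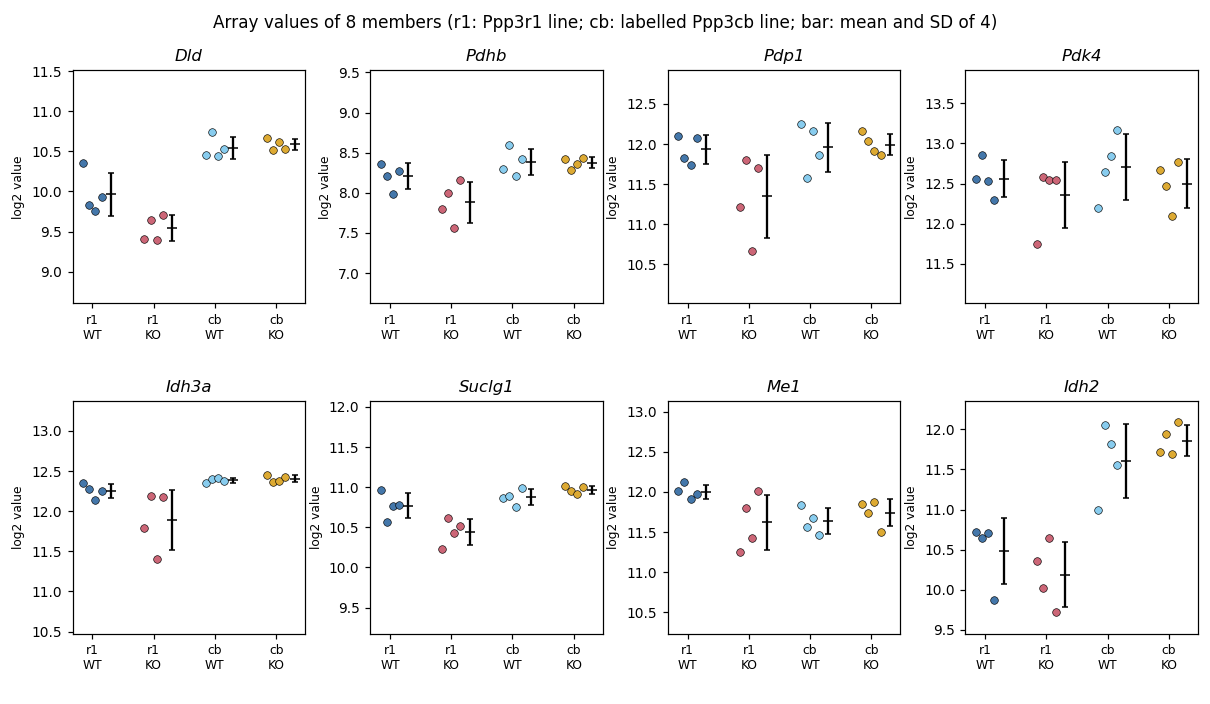
Log2 values (vertical axes, each spanning the same width) of 8 members on every array, in Ppp3r1 WT and KO (r1) and labelled Ppp3cb WT and KO (cb); points are arrays, and the bars give mean and SD of 4. Dld is the gene in which the 4 Ppp3r1 KO points lie below all 4 WT points, and the low Pdk4 value of 11.75 is a single KO array.

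Neighbouring genes of the same metabolism were read from a list. Of 50 listed, 43 had a probe set and 42 were tested. In Ppp3r1 KO 27 were lower and 15 higher, with a median of -0.11 and 0 called by limma. At an unadjusted p under 0.05 were 7, 4 lower and 3 higher. Of all 15252 clusters, 1787 met that threshold, 816 lower (5.35%) and 971 higher. The smallest p belonged to Pkm, pyruvate kinase, at -0.27 (SE 0.09), Adhfe1, a mitochondrial hydroxyacid transhydrogenase, at 0.49 (SE 0.16), Bdh1, a ketone body dehydrogenase, at -0.52 (SE 0.19), Slc25a4, the ADP/ATP carrier of muscle, at -0.16 (SE 0.06), and Pck1, the cytosolic phosphoenolpyruvate carboxykinase, at 0.43 (SE 0.19). Succinate dehydrogenase, the cycle enzyme outside the 39 genes, had subunits at 0.00 (Sdha), -0.15 (Sdhb), -0.20 (Sdhc) and -0.25 (Sdhd). Of 12 transcriptional regulators of oxidative genes, 6 were lower and 6 higher with 0 called by limma. At an unadjusted p under 0.05 were 3 of the 12, beside the 1787 of 15252 clusters given above. They were Esrrg, an estrogen-related receptor, at -0.47 (SE 0.16), and the FoxO factors Foxo3 and Foxo1, known activators of Pdk4, at 0.34 (SE 0.11) and 0.32 (SE 0.15).

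In the Ppp3cb line, the KO label was set against the WT label in the common fit. Members differed little: 25 of 37 were higher and 12 lower, with a median log2 difference of 0.03 (0.013 over all clusters), and the range was -0.21 to 0.26. None was called by limma (0 of 37, against 0% of all clusters), and 0 had an unadjusted p under 0.05, against 1.73% of all clusters. The 5 members with the smallest p were Pdk2, Pdp2, Me3, Idh2 and Suclg1. Pdk2 read 12.41, 12.52, 12.51 and 12.51 on labelled KO arrays and 12.36, 12.26, 12.53 and 12.27 on labelled WT arrays, a difference of 0.13 (SE 0.07). Pdp2 read 6.39, 6.21, 6.32 and 6.14 against 6.10, 6.26, 6.56 and 6.68, a difference of -0.13 (SE 0.11). Both groups overlapped in each case.

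Me3 read 9.71, 9.90, 9.76 and 9.72 on labelled KO arrays and 9.81, 9.57, 9.77 and 9.40 on labelled WT arrays, a difference of 0.13 (SE 0.12). Idh2 read 11.72, 11.94, 11.69 and 12.09 against 10.99, 12.05, 11.82 and 11.56, a difference of 0.26 (SE 0.23) with WT animal 12 far below the rest. Suclg1 read 11.02, 10.95, 10.91 and 11 against 10.87, 10.89, 10.75 and 10.99, a difference of 0.10 (SE 0.10). Pdk4 read 12.67, 12.47, 12.09 and 12.77 against 12.19, 12.64, 12.84 and 13.17, a difference of -0.21 (SE 0.21), which was 0.16 without the 4 contradictory arrays. Without those arrays, which left 2 per group, the median of the members was 0.11 with 5 lower, and 0 were called (limma adjusted p = 0.41 for Got1, the smallest, at a difference of 0.48).

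The remaining members described for the Ppp3r1 line overlapped between both labels of the Ppp3cb line. Mpc1 read 12.53, 12.46, 12.62 and 12.58 on labelled KO arrays and 12.57, 12.61, 12.43 and 12.53 on labelled WT arrays, and Pcx read 9.22, 9.06, 9.23 and 8.93 against 9.25, 9.09, 9.10 and 9.32. Pdhb read 8.42, 8.28, 8.36 and 8.43 on labelled KO arrays and 8.30, 8.59, 8.21 and 8.42 on labelled WT arrays, a difference of 0.00 (SE 0.12). Among all 37 members, 0 separated the labelled groups.

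Pdp1, the phosphatase with the greatest difference in the Ppp3r1 line, read 12.16, 12.04, 11.92 and 11.86 with the KO label and 12.25, 11.58, 12.16 and 11.86 with the WT label, a difference of 0.04 (SE 0.19). Its partner Pdpr read 11.07, 11.09, 11.10 and 11.08 against 10.99, 11.04, 11.08 and 10.89, a difference of 0.09 (SE 0.11). In the cycle, Aco1 read 8.99, 9.18, 9.17 and 9.24 against 9.13, 9.04, 9.03 and 9.06. Idh3a varied least of these genes within the line, between 12.35 and 12.45, with 12.45, 12.36, 12.38 and 12.43 under the KO label and 12.35, 12.40, 12.42 and 12.38 under the WT label. The shuttle carrier Slc25a12 read 13.06, 13.08, 13.11 and 13.04 against 13.03, 12.93, 13.26 and 12.93, a difference of 0.03 (SE 0.10).

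**Figure D3:**
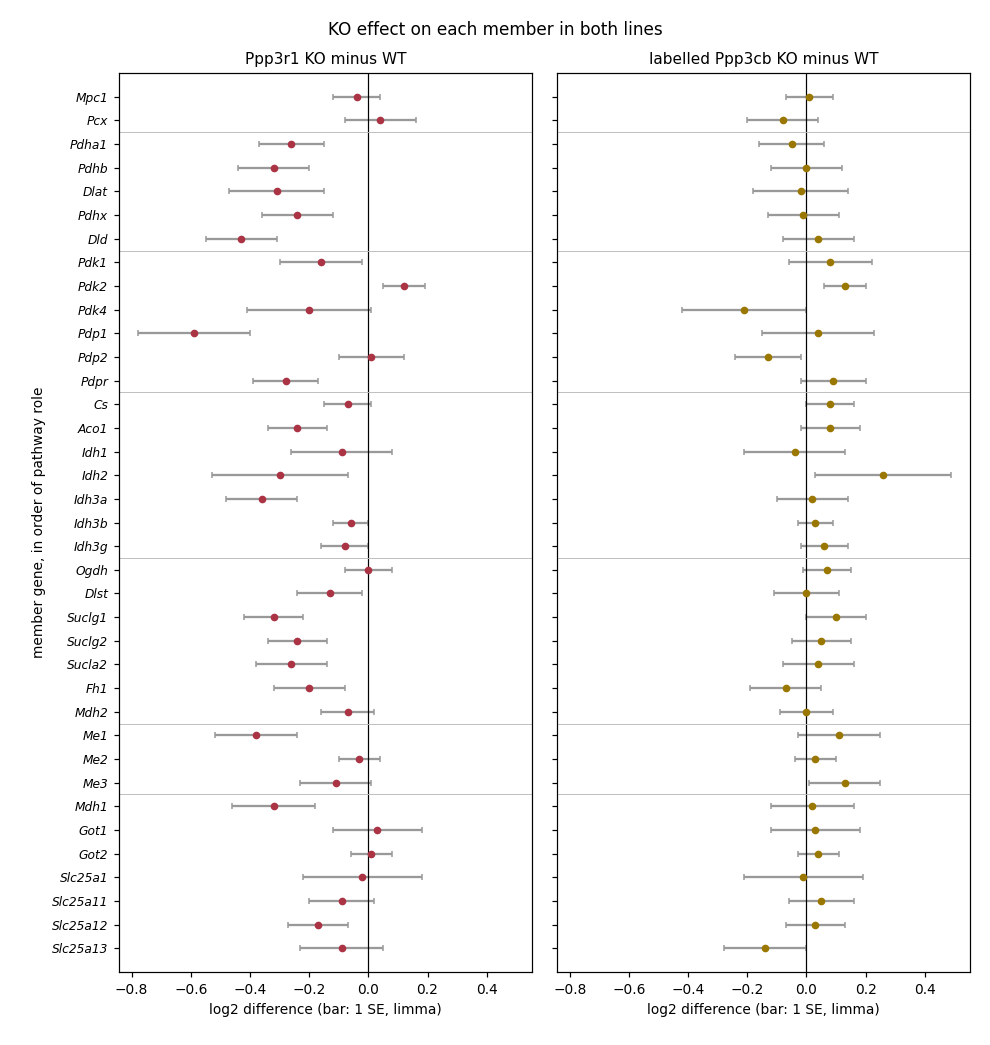
Log2 difference (horizontal axis) of each of the 37 tested members in Ppp3r1 KO minus WT (left) and labelled Ppp3cb KO minus WT (right), with bars of 1 SE from the common limma fit. Points at left reach -0.59 (Pdp1) and lie mostly below 0, and those at right lie between -0.21 and 0.26.

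Whether the effect of the KO label differed between the lines was tested as an interaction. The difference (Ppp3r1 effect minus labelled Ppp3cb effect) was below 0 for 32 of 37 members, with a median of -0.15 against 0.003 over all clusters. It passed for 0 members by limma (0% of all clusters, smallest limma adjusted p = 0.821), and 7 were below 0 at an unadjusted p under 0.05, against 2.75% of all clusters. The smallest p belonged to Suclg1 at -0.42 (SE 0.14), Dld at -0.47 (SE 0.17), Me1 at -0.49 (SE 0.19), Pdpr at -0.37 (SE 0.15) and Pdp1 at -0.63 (SE 0.27). Leaving out KO animal 416 of the Ppp3r1 line gave 16 such members (6.92% of all clusters), leaving out WT animal 334 gave 3 (1.59%) and leaving out KO animal 331 gave 3 (1.8%). Without the 4 contradictory arrays the median was -0.26, with 4 such members (1.73% of all clusters).

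In the Ppp3cb line, the arrays of animals 18, 5, 23 and 24 had a Ppp3cb value below 11 and those of animals 6, 9, 12 and 2 one above it. The split is by a measured value and joins labelled KO and WT arrays, so it is described without a test. Shuttle genes were higher on the arrays with low Ppp3cb, 7 of 7 with a median log2 difference of 0.21. Over all members 25 of 37 were higher (67.6%, against 53.5% of all clusters), with a median of 0.06 against 0.01. The 4 arrays below 11 lay above the other 4 for 6 of 37 members (16.2%), against 6.58% of all clusters, and below them for 1 member, Mpc1, against 5.58%.

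Got1, the cytosolic aspartate aminotransferase, was 13.15 ± 0.16 (SD, n = 4) where Ppp3cb was low and 12.70 ± 0.16 (SD, n = 4) where it was high, a difference of 0.45. On single arrays Got1 read 13.04, 13.07, 12.80 and 12.84 with the KO label and 12.48, 12.68, 13.40 and 13.09 with the WT label, so the low-Ppp3cb arrays of both labels were the high ones. Slc25a13 differed by 0.41 (6.20 to 6.63 against 5.93 to 6.13), close to the filter. Dlat (10.97 to 11.07 against 10.75 to 10.84), Pdha1 (11.88 to 12.08 against 11.63 to 11.83), Slc25a11 (12.25 to 12.44 against 12.05 to 12.22) and Dlst (10.91 to 11.06 against 10.71 to 10.81) were higher by 0.20 to 0.22. Mpc1 was lower, 12.43 to 12.53 against 12.57 to 12.62.

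Dld, which separated the groups of the Ppp3r1 line, did not separate here (10.44 to 10.67 where Ppp3cb was low, 10.45 to 10.74 where it was high), nor did Suclg1 (10.75 to 11.02 and 10.87 to 11) or Pdk4 (12.47 to 13.17 and 12.09 to 12.77). Summed slow fibre markers were 13.24 to 14.76 on the low-Ppp3cb arrays and 13.34 to 15.05 on the others, and macrophage markers 9.82 to 10.70 and 10.16 to 10.72. The 2 brown adipocyte markers, both below the filter, summed to 6.55 to 6.83 and 6.35 to 6.41. The liver marker Alb read 9.11 in labelled KO animal 6 and 9.13 in labelled WT animal 12, both with high Ppp3cb, against 6.02 to 7.14 on the other 6 arrays. The part of these markers in the differences was not tested.

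**Figure D4:**
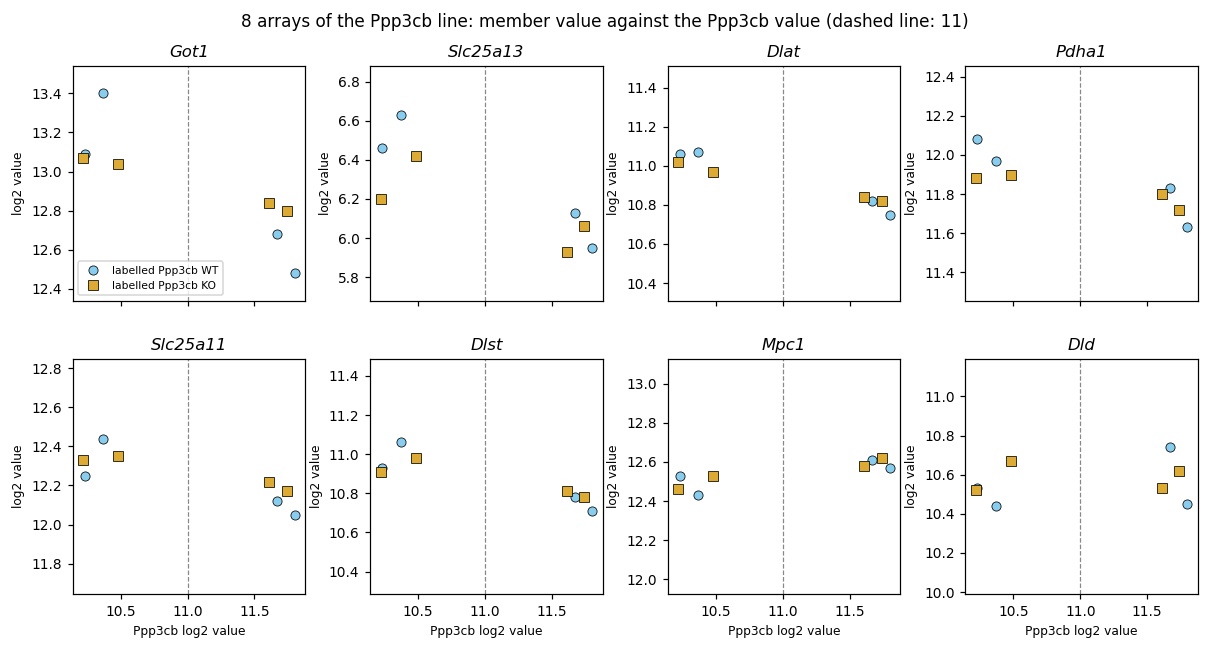
Log2 value of 8 members (vertical axes, same width) against the Ppp3cb log2 value (horizontal axis) on the 8 arrays of the Ppp3cb line, with circles for labelled WT, squares for labelled KO and a dashed line at 11. The arrays left of the line lie above those right of it for Got1, Slc25a13, Dlat, Pdha1, Slc25a11 and Dlst and below them for Mpc1, and they overlap for Dld.

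WT littermates of both lines were set against each other, since the KO effects start from these levels. Ppp3r1 WT muscle had lower values than Ppp3cb WT muscle for 32 of 37 members, with a median log2 difference of -0.20, against -0.097 and 61.5% lower over all clusters. By limma, 15 members were called, where fell means called lower in Ppp3r1 WT than in labelled Ppp3cb WT and rose called higher: 14 fell (24.3% of all clusters did) and 1, Me1, rose (10.7% did). The 4 arrays did not overlap for 17 members in the lower direction and for Me1 in the higher one, against 22.7% and 8.47% of all clusters. Line, cohort, Ppp3cb status of the arrays and any difference in array run cannot be told apart here. Without the 4 contradictory arrays, 6 members were called: Pdhx, Dld, Idh2, Idh3b, Suclg2 and Me3, all lower. These are 16.2% of the members, where 14.3% of all clusters were called lower in that fit, a share near the background.

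The NADP-dependent isocitrate dehydrogenases Idh2 and Idh1 had the greatest differences among the members. Idh2 fell by 1.12 (SE 0.23, 2.17-fold, limma adjusted p = 0.00246), with labelled Ppp3cb WT arrays at 10.99 to 12.05 and Ppp3r1 WT arrays at 9.87 to 10.72. Idh1 fell by 0.81 (SE 0.17, 1.75-fold), from 8.40, 8.55, 8.79 and 8.92 in Ppp3cb WT, with 8.66, 8.59, 8.61 and 8.64 on the labelled KO arrays. Idh3b fell by 0.29 (SE 0.06), from 12.73, 12.80, 12.75 and 12.74, with 12.80, 12.75, 12.76 and 12.83 on the labelled KO arrays, and read 12.35, 12.41, 12.34 and 12.54 in Ppp3r1 KO and 12.55, 12.46, 12.40 and 12.45 in Ppp3r1 WT. The catalytic subunit Idh3a was not called (-0.13, SE 0.12), nor was Cs (0.04, SE 0.08). The WT groups met at 12.35 for Idh3a and overlapped for Cs.

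In the pyruvate dehydrogenase complex 3 of 5 subunits were called. Dld fell by 0.58 (SE 0.12, limma adjusted p = 0.00291), and read 10.45, 10.74, 10.44 and 10.53 in labelled Ppp3cb WT and 10.67, 10.52, 10.62 and 10.53 in labelled Ppp3cb KO. Pdha1 fell by 0.53 (SE 0.11), with 11.63, 11.83, 11.97 and 12.08 (labelled WT) and 11.90, 11.88, 11.72 and 11.80 (labelled KO). Pdhx fell by 0.48 (SE 0.12), with 9.06, 9.00, 9.08 and 8.99 (labelled WT) and 9.15, 9.10, 8.95 and 8.91 (labelled KO), against 8.78, 8.44, 8.49 and 8.53 in Ppp3r1 WT and 8.03, 8.43, 8.17 and 8.65 in Ppp3r1 KO. Every one of the 8 Ppp3cb-line values of these 3 genes lay above every Ppp3r1-line value of the same gene. This was not particular to the complex, since other members separated the lines too, among them Idh2, Idh3b, Suclg2, Mdh1 and Got2. The share of all clusters that separate the whole lines this way was not counted. Between the WT groups alone, 22.7% of all clusters did not overlap in this direction. The call of Pdha1 was lost without the 4 contradictory arrays (limma adjusted p = 0.0533).

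Among the kinases and phosphatases, Pdk1 alone was called, falling by 0.42 (SE 0.14). It read 8.55, 8.87, 8.86 and 8.78 in labelled Ppp3cb WT, 8.79, 8.80, 8.79 and 9.02 in labelled Ppp3cb KO, 8.54, 8.19, 8.53 and 8.14 in Ppp3r1 WT and 7.84, 8.34, 8.06 and 8.51 in Ppp3r1 KO. It was no longer called in 4 of the 16 fits with an array omitted (highest limma adjusted p = 0.0888, without Ppp3r1 WT animal 336). Pdk4 differed by -0.15 (SE 0.21) and Pdp1 by -0.02 (SE 0.19), and Pdk2 by 0.18 (SE 0.07) without a call.

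In the second span of the cycle Suclg2 fell by 0.55 (SE 0.10, limma adjusted p = 0.00163), from 9.34, 9.48, 9.24 and 9.28 in labelled Ppp3cb WT, with 9.37, 9.25, 9.41 and 9.49 in labelled Ppp3cb KO. A second probe set of the gene gave the same difference of -0.55 (SE 0.10). Fh1 fell by 0.44 (SE 0.12), with 11.35, 11.59, 11.47 and 11.61 (labelled WT) and 11.50, 11.45, 11.35 and 11.42 (labelled KO), 11.25, 10.96, 11.01 and 11.05 in Ppp3r1 WT and 10.56, 11, 10.67 and 11.24 in Ppp3r1 KO. Dlst fell by 0.39 (SE 0.11), with 10.71, 10.78, 11.06 and 10.93 (labelled WT) and 10.98, 10.91, 10.78 and 10.81 (labelled KO) against 10.64, 10.33, 10.39 and 10.56 (Ppp3r1 WT) and 10.08, 10.41, 10.29 and 10.65 (Ppp3r1 KO), and missed the threshold in 2 of those 16 fits (highest limma adjusted p = 0.0588, without Ppp3r1 WT animal 336). Suclg1 was not called (-0.10, SE 0.10), unlike its partner Suclg2, and that difference between subunits was not tested.

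The malic enzymes went both ways. Me1 rose by 0.37 (SE 0.14, limma adjusted p = 0.0427), from 11.84, 11.56, 11.68 and 11.46 in labelled Ppp3cb WT, with 11.85, 11.74, 11.88 and 11.50 in labelled Ppp3cb KO, and it was no longer called in 8 of the 16 fits with an array omitted (highest limma adjusted p = 0.118, without Ppp3r1 WT animal 336). A second probe set gave 0.42 (SE 0.12, limma adjusted p = 0.0145). Me3 fell by 0.41 (SE 0.12), and missed the threshold in 2 such fits (highest limma adjusted p = 0.0533, without the same animal).

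Of the shuttle genes, Mdh1, Got2 and Slc25a11 were called. Mdh1 fell by 0.66 (SE 0.14, 1.58-fold, limma adjusted p = 0.00353), from 11.79, 12.19, 12.20 and 12.41 in labelled Ppp3cb WT, with 12.18, 12.26, 12.07 and 12.17 in labelled Ppp3cb KO. Slc25a11 fell by 0.43 (SE 0.11), with 12.05, 12.12, 12.44 and 12.25 (labelled WT) and 12.35, 12.33, 12.17 and 12.22 (labelled KO) against 11.91, 11.70, 11.67 and 11.83 in Ppp3r1 WT and 11.52, 11.88, 11.44 and 11.92 in Ppp3r1 KO. Got2 fell by 0.33 (SE 0.07), with 13.28, 13.39, 13.54 and 13.51 (labelled WT) and 13.45, 13.54, 13.43 and 13.49 (labelled KO) against 13.20, 13.09, 12.95 and 13.17 (Ppp3r1 WT) and 13.08, 13.15, 12.99 and 13.24 (Ppp3r1 KO), and its second probe set gave -0.34 (SE 0.07). Without the 4 contradictory arrays these 3 calls were lost (limma adjusted p = 0.0597, 0.0613 and 0.103 for Mdh1, Got2 and Slc25a11).

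Cell type markers differed between the WT groups as well, and their part in the members' differences was not tested. All 7 slow fibre markers fell (median -1.88), and their summed log2 level was 13.24 to 15.05 in labelled Ppp3cb WT against 10.83 to 12.91 in Ppp3r1 WT. Myh2 fell by 1.03 (SE 0.25), and the 8 markers of skeletal muscle in general had a median of 0.03. All 6 macrophage markers fell (median -0.88, summed level 10.16 to 10.70 against 9.36 to 9.74), as did 2 of 2 Schwann cell and 3 of 5 fibroblast markers. Of the 12 regulators, 12 had a lower mean in Ppp3r1 WT and limma called 9 of them lower and 0 higher, where 24.3% of all clusters were called lower. Ppara, the fatty acid receptor, was among those called and fell by 1.11 (SE 0.12). Of the 42 other pathway genes, 34 were lower and 8 higher, with 14 called lower and 0 called higher.

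**Figure D5:**
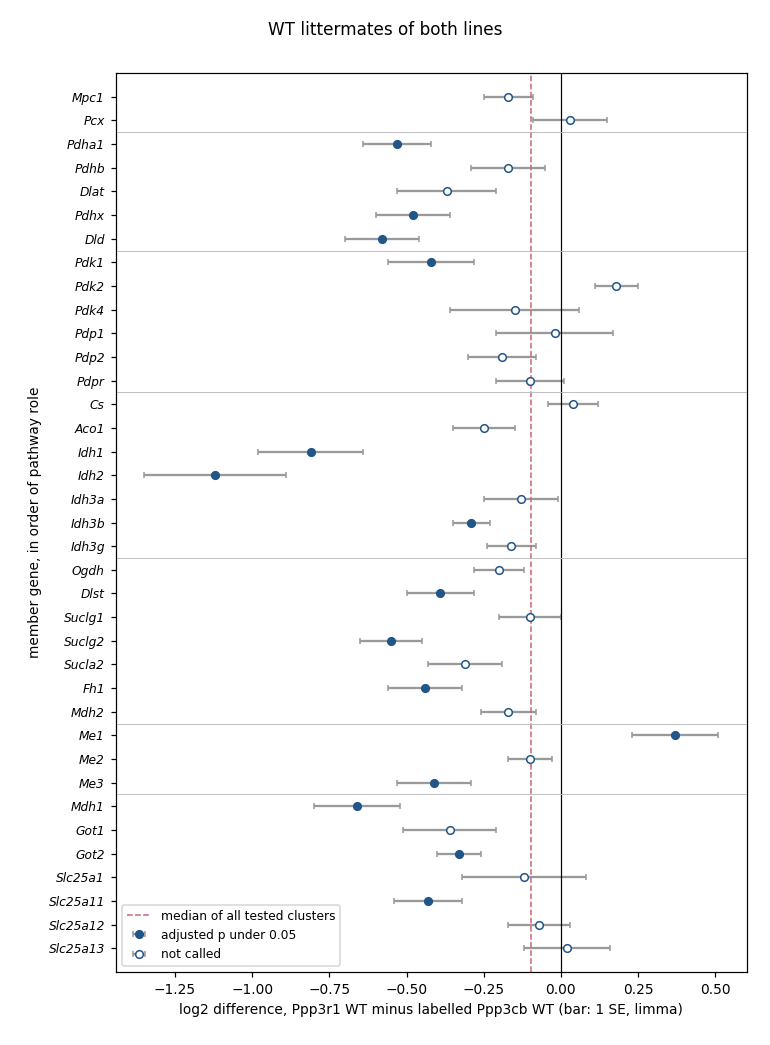
Log2 difference (horizontal axis) of each tested member in Ppp3r1 WT minus labelled Ppp3cb WT muscle, with bars of 1 SE from limma; filled points have an adjusted p under 0.05, and the dashed line is the median of all tested clusters, -0.097. Of the 15 filled points 14 lie left of 0, down to -1.12 for Idh2, and Me1 lies right of it at 0.37.

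Members also varied together within groups. Over the 16 arrays, as deviations from the group means, the members most like Dld were Sucla2 (Pearson r = 0.88), Pdhb (0.80), Idh3b (0.79), Fh1 (0.74) and Pdpr (0.74). Those most like Pdk4 were Pdha1 (0.70), Mdh1 (0.60), Pdp2 (0.58), Pdk1 (0.55) and Got1 (0.53). These values describe arrays that share a normalisation and 4 group means, and the lowest were -0.40 for Dld with Pdk2 and -0.25 for Pdk4 with Slc25a1.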

How the data were processed

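The authors deposited log2 values per probe set for 16 arrays, 1 per mouse, made with RMA and GCOS 1.0 per the submitters' processing notes. Joint normalisation of both lines is not stated, nor is a genome build. A ratio to the median of each probe set, also deposited by the authors, was only checked against the log2 values. The table held 35557 probe sets, of which 21789 had 1 gene symbol in the platform annotation, 1621 several and 12147 none given.

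From these values, probe sets with 1 symbol and a mean of at least 6.18 (the 30th percentile) were kept, 15252 in all for 13919 genes, and a gene's brightest probe set stood for it. Whether a probe set also reads a near-identical gene copy was not tested. A group-means model over all 16 arrays was fitted with limma 3.58.1 in R 4.3.3, with an intensity trend and Benjamini-Hochberg adjustment over the 15252 clusters (12 residual degrees of freedom, called at an adjusted p under 0.05). Single values were also tested with a two-sided exact permutation test. The fit was tested on simulated data. That separate mice gave the arrays rests on their animal numbers, and precision is limited by the number of arrays.

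The members and gene lists were chosen with earlier results of these data known. Values on every array are given for members called in any comparison, the 2 members of each role with the smallest p in the Ppp3r1 line, the 5 with the smallest p in the other comparisons, and Pdk4, Dld and Suclg1. Other genes were named as the 5 other pathway genes with the smallest p in the Ppp3r1 line. Other genes and members outside these rules (Got1, the succinate dehydrogenase subunits, the regulators with values) were named after their values were seen. Promoter sequences came from RefSeq (GRCm38.p6), in which 36 members were matched. Alternatives covered the filter, normalisation, groups fitted, array weights, trend, probe set choice, the 4 contradictory arrays, and each array left out.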

Additional observations from a re-analysis of the deposited data

Results flagged for a closer look

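In 8 of 152 groups of 4 arrays (38 members in 4 groups), 1 array stood apart from the other three by Dixon's criterion, which chance gives in about 1 in 20 groups. Kinases of the Ppp3cb line gave 3 of these values. Pdk1 was 9.02 in labelled KO animal 9 against 8.79 to 8.80 in the others, Pdk2 was 12.41 in labelled KO animal 18 against 12.51 to 12.52, and the dim Pdk3 was 6.34 in labelled WT animal 12 against 5.99 to 6.02. WT animal 23, whose Ppp3cb value was low, carried 2 of the flags, in citrate synthase and the mitochondrial malate dehydrogenase. Cs was 12.82 there against 12.41 to 12.47, and Mdh2 was 13.49 against 13.23 to 13.26.

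The other three values were in the Ppp3r1 line. Pdk4 was 11.75 in KO animal 331 against 12.55 to 12.58, the array on which 33 of 37 members lay below the WT mean. Idh1 was 8.40 in KO animal 416 against 7.50 to 7.62. Idh2 was 9.87 in WT animal 415 against 10.65 to 10.72, and the summed slow fibre markers of that array were 10.83.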

How the results depend on the processing

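The counts of members called and the members' medians kept their direction and stayed within the limits set for a change under every alternative except one. Without the 4 arrays whose Ppp3cb value contradicts the label, 6 members were called between the WT groups in place of 15 (3324 of all clusters in place of 5343), in a fit with fewer arrays. With 1 array left out, the calls were 11 to 19 between the WT groups and 0 in the other 3 comparisons. Over the same omissions the median of the members was -0.26 to -0.10 in Ppp3r1 KO against WT, 0.01 to 0.05 in labelled Ppp3cb KO against WT, -0.26 to -0.12 for the difference of KO effects and -0.29 to -0.18 between the WT groups. Over all clusters, up to 12 were called in the Ppp3r1 line (without KO animal 416, where 1 was called with all arrays), and without the 4 arrays 14 were called in the Ppp3cb line and 7 for the difference of effects, where 0 were called with all arrays. No described member's called value changed sign under any alternative, but only the WT comparison had called values in the main fit. Uncalled values of the 27 described members did change sign. They did so 13 times in the Ppp3r1 line (6 members) and 37 times in the labelled Ppp3cb line (16 members). For the difference of KO effects it was 27 times (6 members), and between the WT groups 13 times (5 members). Between the WT groups, 28 of 701 recomputed member values lost a call and 12 gained one. No paired analysis was possible because the groups share no animal number; with the series of animal numbers (331 to 336 against 413 to 416) as a block in the Ppp3r1 line, 0 members were called there, with a median of -0.16, and 16 between the WT groups. Groups of 4 arrays limit what could be called for differences of this size.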

Other observations

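Some genes beside the pathway also differed between the WT groups. Ldhb, the heart-type lactate dehydrogenase that favours lactate oxidation, differed by -1.69 on the log2 scale in Ppp3r1 WT against labelled Ppp3cb WT muscle (SE 0.25, limma adjusted p = 0.000394). Bdh1, which oxidises the ketone body 3-hydroxybutyrate, differed by -1.61 (SE 0.19, limma adjusted p = 0.000101), and Slc16a1, a lactate and ketone body transporter, by -1.01 (SE 0.17, limma adjusted p = 0.000805). Nnt, the mitochondrial transhydrogenase that makes NADPH, differed by -1.01 (SE 0.20, limma adjusted p = 0.0022). These 4 genes were chosen after their values were seen, and they were not recomputed without the 4 contradictory arrays.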
